A study of Mus musculus with 12 samples.

Results

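The clock activator arm, as used here, is a set of 6 genes that drive or time the positive limb of the circadian clock: Arntl, Npas2, Clock, Nfil3, Cry1 and Rora. They were picked by name from the 26781 genes of the table, with results of the MI against sham comparison already known, and all 6 were found by matching Ensembl identifiers to mouse symbols. RNA was taken from hearts of C57BL/6J mice, an inbred laboratory strain, and sequenced in 12 libraries, with 3 libraries in each of 4 groups labelled sham, MI, CIH and MI+CIH. Going by the subject named in the series title, MI is taken to mean myocardial infarction, and CIH to mean chronic intermittent hypoxia, in which oxygen drops again and again to model sleep apnoea. Sham is then the operated control without infarction, MI is infarction alone, CIH is hypoxia alone and MI+CIH is both. The labels used here give no age, no sex, no time after surgery, no hypoxia schedule, no region of the heart and no hour of collection, and name no allele, transgene or drug. Transcript levels are in FPKM, a read or fragment count divided by exon length and by library size, so levels of different genes may be set side by side.

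The mammalian clock is a loop of transcription factors. BMAL1, the product of Arntl, pairs with CLOCK or with its relative NPAS2 and switches on genes that carry E-boxes, among them the period (Per), cryptochrome (Cry) and REV-ERB (Nr1d1, Nr1d2) genes and the output factor Dbp. PER and CRY proteins then block the BMAL1 pair, while the REV-ERB proteins repress and the ROR proteins, RORA among them, activate Arntl through a shared element. Nfil3 encodes E4BP4, a repressor that binds the same D-box sites as the activator DBP. In heart, as in other peripheral tissues, Arntl and Dbp transcripts peak at opposite phases of the day. Levels of clock genes below may therefore depend on the hour at which a heart was taken. Because that hour is not in the labels, an effect of the group and a shift in hour or phase cannot be told apart.

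The stretch around the transcription start was read for all 6 members from RefSeq on GRCm38.p6, which gave 9 windows of 300 bases (250 before the start and 50 after). Each window was searched on both strands for the E-box CACGTG, for the cores TAGGTCA and TGGGTCA of the element shared by ROR and REV-ERB, and for the D-box TTANGTAA; none of the 4 overlapped another in these windows. The 3 windows with a match are printed because they show where letters matching these motifs stand in the members' sequence. Binding at these letters was not measured. The matched letters are in capitals and each window is read 5′ to 3′ along its gene.
Arntl, chr7:113207261-113207560, plus strand: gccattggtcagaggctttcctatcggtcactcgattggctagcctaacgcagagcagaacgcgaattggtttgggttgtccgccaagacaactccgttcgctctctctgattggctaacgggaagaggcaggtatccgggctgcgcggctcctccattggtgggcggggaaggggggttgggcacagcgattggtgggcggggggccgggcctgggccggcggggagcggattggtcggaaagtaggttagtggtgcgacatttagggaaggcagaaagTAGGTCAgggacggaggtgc
Nfil3, chr13:52980990-52981289, minus strand: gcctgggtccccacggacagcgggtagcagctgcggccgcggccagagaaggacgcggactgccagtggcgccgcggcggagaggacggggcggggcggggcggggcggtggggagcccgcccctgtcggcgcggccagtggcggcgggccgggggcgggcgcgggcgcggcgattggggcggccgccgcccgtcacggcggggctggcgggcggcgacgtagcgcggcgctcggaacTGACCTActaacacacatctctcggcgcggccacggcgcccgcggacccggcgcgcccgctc
Cry1, chr10:85185005-85185304, minus strand: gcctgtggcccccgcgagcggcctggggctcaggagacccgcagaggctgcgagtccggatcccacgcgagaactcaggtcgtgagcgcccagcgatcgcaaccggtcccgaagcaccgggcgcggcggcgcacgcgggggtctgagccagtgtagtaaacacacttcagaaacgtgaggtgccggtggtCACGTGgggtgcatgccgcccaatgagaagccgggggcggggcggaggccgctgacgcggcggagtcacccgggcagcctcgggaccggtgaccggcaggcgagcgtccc
The second of the Arntl windows held TAGGTCA at bases 281 to 287, on the strand of the gene. Nfil3 held the same core on the opposite strand, printed as TGACCTA, at bases 239 to 245. Cry1 held CACGTG at bases 191 to 196. The first Arntl window and those of Npas2, Clock and Rora held none of the 4 motifs, which says only that these letters were not in those 300 bases. Of all 32851 windows in the reference table, 7.15% held CACGTG, 2.61% TAGGTCA, 3.98% TGGGTCA and 2.32% TTANGTAA.

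Library totals recovered from the steps of the FPKM values were 26.06 to 33.42 M reads, and replicates correlated across genes at 0.932 to 0.97. The 6 members were covered by medians of 307 (Cry1) to 2616 (Clock) reads per library, and all passed the filter of 0.5 FPKM in at least 3 libraries that 15503 genes passed. All 7 heart muscle markers were present, with a summed level of 12400 to 16200 FPKM in sham, MI and CIH and 4880 to 11800 FPKM in MI+CIH. Summed fibroblast markers (7 of 7 present) lay between 203 and 254 FPKM in sham and between 504 and 857 FPKM in MI, and between 178 and 330 FPKM in CIH against 774 and 1670 FPKM in MI+CIH. Airway markers (5 of 5 present) summed to 540 FPKM in sham 2 and 310 to 3470 in the MI+CIH libraries, against 0.128 to 16.7 in the other 8, and MI+CIH 3 had the lowest heart muscle sum. No marker was at 0 in all libraries. Members in MI+CIH against MI and against CIH, and counts over all genes, are therefore also given without sham 2 and MI+CIH 3. MI+CIH 1 and MI+CIH 2 stayed in that refit, with airway sums of 310 and 3470 FPKM.

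The members did not move as a block. Arntl, Npas2 and Clock, the genes of the DNA-binding pair, followed one order of group means, highest in MI, then MI+CIH, then CIH, and lowest in sham. Nfil3 followed the same order with a steeper drop after MI. Cry1 was highest in MI and lowest in MI+CIH, and Rora was almost level.

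Arntl (ENSMUSG00000055116, chr7:113207465-113314126 on GRCm38, plus strand, 22 merged exons) encodes BMAL1, the partner that the clock cannot do without. Its levels were 0.644, 0.349 and 0.64 FPKM in sham 1, 2 and 3, and 8.95, 10.3 and 8.37 FPKM in MI 1, 2 and 3. They were 2.42, 6.26 and 1.14 FPKM in CIH 1, 2 and 3, and 5.21, 5.17 and 5.54 FPKM in MI+CIH 1, 2 and 3. The sham and MI libraries lay far apart and overlapped no other group, the MI+CIH libraries lay close together, and the CIH libraries spread from near the sham level to above every MI+CIH library. The means were 0.544 ± 0.169 in sham, 9.2 ± 0.971 in MI, 3.27 ± 2.66 in CIH and 5.31 ± 0.201 FPKM in MI+CIH (SD, n = 3). Only the neighbours MI+CIH and CIH overlapped in this order. In sham Arntl rested on 74 to 146 reads per library.

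Npas2 (ENSMUSG00000026077, chr1:39193731-39363236, plus strand, 23 merged exons) encodes the relative of CLOCK that can take its place beside BMAL1. It stood at 0.587, 0.821 and 0.901 FPKM in sham 1, 2 and 3, and at 3.5, 4.05 and 2.48 FPKM in MI 1, 2 and 3. It stood at 1.65, 2.29 and 0.22 FPKM in CIH 1, 2 and 3, and at 2.96, 2.41 and 2.77 FPKM in MI+CIH 1, 2 and 3. CIH 3, with 35 reads, was the lowest of all 12 libraries, below every sham library, whereas CIH 1 and CIH 2 lay above all sham libraries. The means were 0.77 ± 0.163 in sham, 3.34 ± 0.798 in MI, 1.39 ± 1.06 in CIH and 2.71 ± 0.283 FPKM in MI+CIH (SD, n = 3), and of the neighbours in this order MI+CIH and CIH did not overlap.

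Clock (ENSMUSG00000029238, chr5:76209868-76304792, minus strand, 24 merged exons) encodes the usual partner of BMAL1, also a histone acetyltransferase. Its levels were 4.16, 3.88 and 4.92 FPKM in sham 1, 2 and 3, and 8.3, 7.9 and 8.37 FPKM in MI 1, 2 and 3. They were 6.19, 6.58 and 3.89 FPKM in CIH 1, 2 and 3, and 7.02, 6.99 and 7.52 FPKM in MI+CIH 1, 2 and 3. Every MI library lay above every MI+CIH library and these above every CIH library, while CIH 3 fell within the sham range. The means were 4.32 ± 0.537 in sham, 8.19 ± 0.257 in MI, 5.55 ± 1.45 in CIH and 7.18 ± 0.3 FPKM in MI+CIH (SD, n = 3).

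The RNA levels of the pair's genes stood in different ratios between groups, and Arntl ranged more widely than its partners. Protein levels are not in these data, so the make-up of the protein pair is not known. The ratio of the Arntl level to the Clock level lay at 0.0897 to 0.155 for the sham libraries, at 1.0 to 1.3 for MI, at 0.294 to 0.951 for CIH and at 0.736 to 0.742 for MI+CIH. The ratio of Npas2 to Clock lay at 0.141 to 0.211 for sham, at 0.296 to 0.513 for MI, at 0.0567 to 0.349 for CIH and at 0.344 to 0.422 for MI+CIH. Per length, Arntl thus went from the least abundant of the 3 RNAs in 2 of 3 sham libraries to a level about equal to or above that of Clock in all MI libraries.

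Nfil3 (ENSMUSG00000056749, chr13:52967209-52981073, minus strand, 2 merged exons) encodes E4BP4, which also acts outside the clock in lymphoid cells. It stood at 4.56, 4.18 and 3.42 FPKM in sham 1, 2 and 3, and at 23.7, 23.4 and 24.4 FPKM in MI 1, 2 and 3. It stood at 2.98, 8.86 and 4.27 FPKM in CIH 1, 2 and 3, and at 7.61, 8.27 and 16.2 FPKM in MI+CIH 1, 2 and 3. The MI libraries were tightly grouped and above all others, CIH 2 lay within the MI+CIH range and CIH 1 below every sham library. The means were 4.05 ± 0.584 in sham, 23.8 ± 0.505 in MI, 5.37 ± 3.09 in CIH and 10.7 ± 4.77 FPKM in MI+CIH (SD, n = 3). MI+CIH 3, the highest of its group, had the lowest heart muscle marker sum of all libraries (4880 FPKM) and the highest fibroblast sum (1670 FPKM), and the part of those cells in the Nfil3 level was not tested.

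Cry1 (ENSMUSG00000020038, chr10:85131700-85185064, minus strand, 13 merged exons) encodes a repressor of the BMAL1 pair, grouped with the activators because its RNA peaks late, nearer to the phase of Arntl than to that of the Per genes. Its levels were 4.5, 4.25 and 2.24 FPKM in sham 1, 2 and 3, and 4.67, 4.74 and 5.76 FPKM in MI 1, 2 and 3. They were 1.78, 3.29 and 2.23 FPKM in CIH 1, 2 and 3, and 1.07, 1.65 and 2.39 FPKM in MI+CIH 1, 2 and 3. All MI libraries lay above all others, sham 3 lay within the CIH and MI+CIH ranges, and CIH and MI+CIH overlapped. The means were 3.67 ± 1.24 in sham, 5.05 ± 0.612 in MI, 2.43 ± 0.775 in CIH and 1.7 ± 0.665 FPKM in MI+CIH (SD, n = 3).

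Rora (ENSMUSG00000032238, chr9:68653786-69388246, plus strand, 18 merged exons) encodes a nuclear receptor that activates Arntl. Its levels were 4.53, 5.24 and 5.85 FPKM in sham 1, 2 and 3, 5.42, 5.65 and 5.59 FPKM in MI, 5.08, 3.82 and 3.52 FPKM in CIH, and 4.99, 4.7 and 6.06 FPKM in MI+CIH. Only CIH 2 and CIH 3 stood below the rest, and each pair of neighbours in the order of means (MI 5.55 ± 0.121, MI+CIH 5.25 ± 0.715, sham 5.21 ± 0.657, CIH 4.14 ± 0.826; SD, n = 3) overlapped. Exons of antisense genes cover 33 bases (0.44%) of the Arntl exons and 82 bases (0.63%) of the Rora exons, and since the strand setting of the counting is not given in the sources used here, reads there could belong to either gene.

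**Figure D1:**
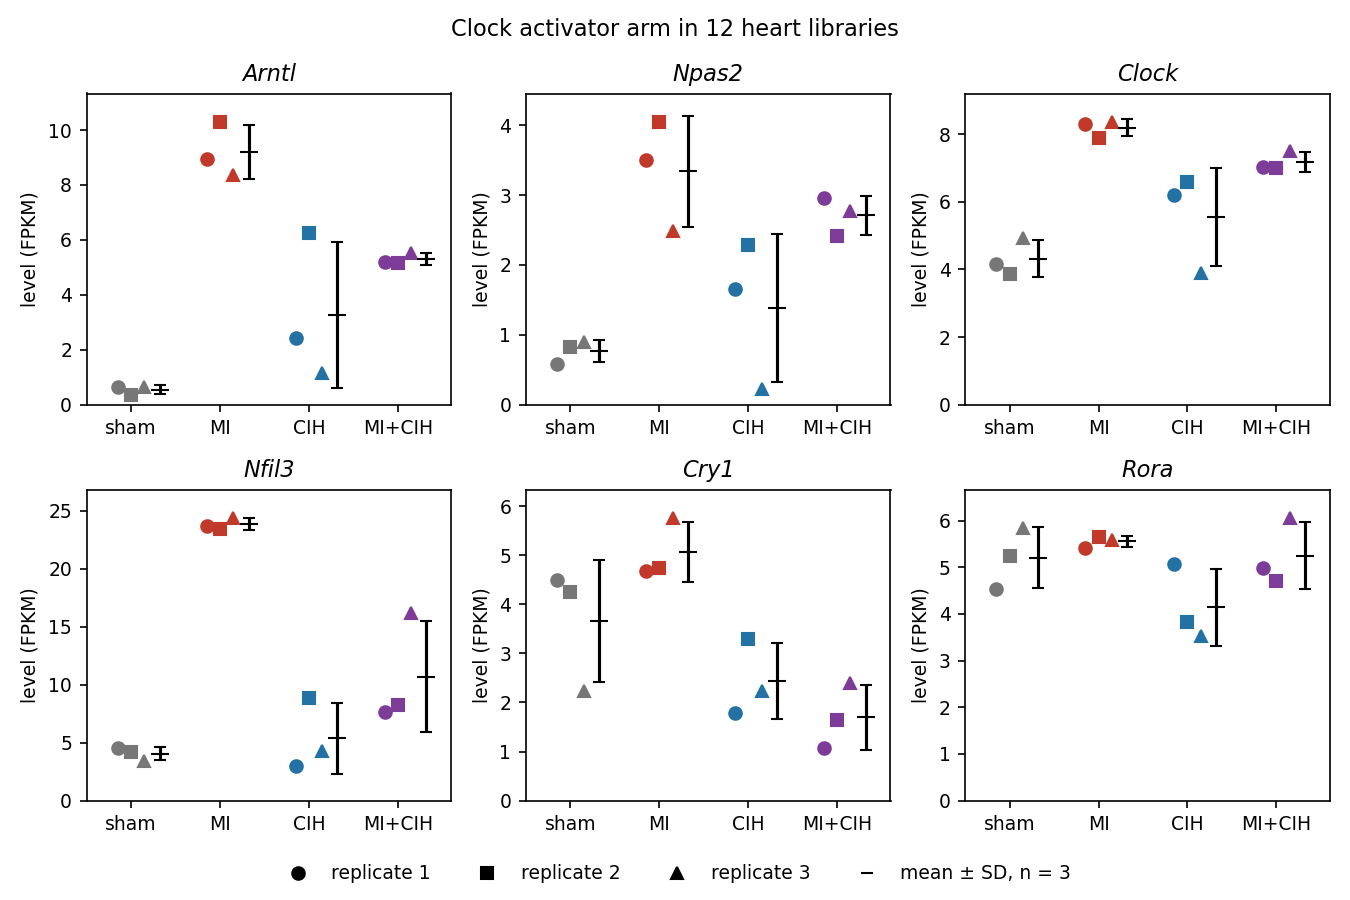
Level in FPKM (vertical axes, from 0, one scale per gene) of the 6 genes in the 12 libraries by group; symbols mark the replicate, and the bar beside each group is the mean ± SD of n = 3. Arntl, Npas2 and Clock run from sham to MI with CIH spread between, Nfil3 stands near 24 FPKM only in MI, Cry1 is lowest in MI+CIH, and Rora lies between 3.52 and 6.06 FPKM throughout.

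MI against sham is the comparison the members were chosen on, so its values are a description without a test. On the log2(FPKM + 0.5) scale, which understates changes of low genes such as Arntl in sham, the difference of MI minus sham was 3.22 (SE 0.38) for Arntl, the fourth highest of the 15503 genes. It was 2.43 (SE 0.34) for Nfil3, which ranked 19 from the highest. It was 1.58 (SE 0.40) for Npas2, 0.86 (SE 0.17) for Clock, 0.46 (SE 0.28) for Cry1 and 0.09 (SE 0.15) for Rora. The 3 members Arntl, Nfil3 and Clock were past the threshold of 0.05 after Benjamini-Hochberg adjustment, where 1.96% of all genes were past it and 1.37% rose, and nothing is read from that count. Without overlap of the 3 libraries with the 3, all members but Rora were higher in MI, as were 19.8% of all genes. MI+CIH against sham shares the sham libraries, and its differences were 2.49, 1.34, 0.68, 1.23, -0.91 and 0.01 for Arntl, Npas2, Clock, Nfil3, Cry1 and Rora; that of Rora turned to -0.13 with median-of-ratios scaling. Past the same threshold there were 4 higher members and 1 lower, where 16.8% of all genes were called, 11.3% higher and 5.51% lower, and nothing is read from these counts either.

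CIH against sham asks what hypoxia alone did to these genes, and it uses the sham libraries of the comparison above. The choice of members with MI against sham known favours higher values in CIH. No member passed limma's test, which called 0.00645% of all genes (1 of 15503), and 1 member had an unadjusted p under 0.05 against 1836 of all genes. That member was Arntl, whose 3 CIH libraries all lay above the 3 sham libraries (6.02 times as high in mean), as those of 5.67% of all genes did. Its log2 difference was 1.62 (95% interval 0.78 to 2.46, limma adjusted p = 0.214). The difference was 0.37 for Npas2 (adjusted p = 0.747), 0.30 for Clock (0.498), 0.25 for Nfil3 (0.801), -0.49 for Cry1 (0.513) and -0.31 for Rora (0.447). Without CIH 2 the differences were 1.08 for Arntl, -0.02 for Npas2 and -0.15 for Nfil3, so the sign of the last 2 turned on that library; Npas2 was at 0.96 without CIH 3, and Nfil3 at 0.56 without CIH 1.

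MI+CIH against MI asks what hypoxia added to infarction, and it uses the MI libraries on which the members were chosen. That choice, made with results of MI against sham known, favours lower values in MI+CIH. The shared direction and the p-values of members below are therefore no independent evidence. All 6 members were lower in MI+CIH, with a median log2 difference of -0.49 against 0.05 over all genes, and none passed the test, which called 0.329% of all genes (51), 0.239% higher and 0.0903% lower. The 2 members with an unadjusted p under 0.05, against 2934 of all genes, were Cry1 and Nfil3. Cry1 stood at 1.7 against 5.05 FPKM, with all 3 MI+CIH libraries below all 3 MI libraries, a log2 difference of -1.37 (95% interval -1.99 to -0.76, limma adjusted p = 0.0581). It passed with median-of-ratios scaling (-1.43, limma adjusted p = 0.0468) and without MI+CIH 2 (-1.38, limma adjusted p = 0.0372). Nfil3 stood at 10.7 against 23.8 FPKM, again without overlap, a difference of -1.20 (95% interval -1.94 to -0.46, limma adjusted p = 0.101). Arntl (-0.74, adjusted p = 0.327) and Clock (-0.18, 0.609) were also lower in every MI+CIH library than in every MI library, as 9.19% of all genes were, while Npas2 (-0.24, 0.801) and Rora (-0.08, 0.822) overlapped. Without sham 2 and MI+CIH 3 no member passed, and Nfil3 and Cry1 stood at -1.53 and -1.59.

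MI+CIH against CIH asks what infarction did under hypoxia, and none of its libraries were in the comparison used to choose the members. The direction was higher in MI+CIH for Arntl, Npas2, Clock, Nfil3 and Rora and lower for Cry1, with a median of 0.62 against 0.20 over all genes. No member passed the test, although 28.2% of all genes did (4368); 4 of 6 had an unadjusted p under 0.05, as did 6318 of all genes. The difference was 0.98 for Nfil3 (95% interval 0.23 to 1.72, limma adjusted p = 0.0516), 0.98 for Npas2 (0.0878), 0.86 for Arntl (95% interval 0.02 to 1.70, limma adjusted p = 0.113), 0.37 for Clock (0.114), 0.32 for Rora (0.134) and -0.42 for Cry1 (0.278). Npas2 and Clock were higher in all 3 MI+CIH libraries than in all 3 CIH libraries, as 27.3% of all genes were.
The calls of this comparison turned on CIH 2: without it Arntl stood at 1.41 (limma adjusted p = 0.00452), Npas2 at 1.37 (0.0263) and Nfil3 at 1.38 (0.00853), and 3 members passed. Nfil3 also passed without MI+CIH 1 (1.17, limma adjusted p = 0.049) and when genes were kept at a mean of at least 1 FPKM (0.98, limma adjusted p = 0.0476), and Rora without CIH 1 (0.46, limma adjusted p = 0.0381). Without CIH 3, the other extreme, Arntl stood at 0.39, Npas2 at 0.39 and Clock at 0.16. Without sham 2 and MI+CIH 3 none passed, with Arntl at 0.84, Npas2 at 0.96 and Nfil3 at 0.65. The same groups differed in marker sums, with heart muscle markers lower in every MI+CIH library than in every CIH library. Fibroblast, macrophage, smooth muscle and pericyte, adipocyte, atrial, airway and lymphocyte markers were higher in every MI+CIH library. Lymphocyte markers summed to 465 to 674 FPKM in MI+CIH and to 6.39 to 27.2 FPKM in CIH, and macrophage markers to 539 to 913 against 151 to 373 FPKM. Only 4 of 7 lymphocyte markers passed the filter and 2 rose, with a median log2 difference of 1.26. The gap in their sum was thus not shared evenly by the markers. All 7 fibroblast and all 7 macrophage markers rose, where 19.9% of all genes rose. Of those tested, 4 of 4 airway, 4 of 5 adipocyte, 4 of 6 smooth muscle and pericyte and 1 of 5 atrial markers rose. Of the 7 heart muscle markers 5 fell, where 8.26% of all genes did. The part of these cell types in the members' values was not tested, and in whole hearts fewer cells of a type and less RNA per cell cannot be told apart. Rescaling by median-of-ratios moved the median of all genes from 0.20 to 0.02, so a difference of about 0.2 is that of the median gene; the members then stood at 0.78 (Nfil3), 0.82 (Npas2), 0.68 (Arntl), 0.18 (Clock), 0.12 (Rora) and -0.60 (Cry1). The share of called genes that rose went from 70.7% to 46.7%.

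The interaction asks whether infarction changed a gene by a different amount with hypoxia than without, as MI+CIH minus CIH less MI minus sham. It contains the contrast the members were chosen on, and that choice favours a negative value for genes that rose in MI. The p-values of members below are therefore a description. No member passed, with 0.0774% of all genes called (12), and 3 members had an unadjusted p under 0.05, against 3294 of all genes. For Arntl the gap between infarcted and non-infarcted hearts was 3.22 without hypoxia and 0.86 with it, a difference of -2.36 (95% interval -3.55 to -1.17, limma adjusted p = 0.0705). It passed without MI+CIH 2 (-2.34, limma adjusted p = 0.0496), and stood at -1.82 (0.0805) without CIH 2. The others were -1.45 for Nfil3 (adjusted p = 0.126), -0.88 for Cry1 (0.228), -0.61 for Npas2 (0.569), -0.48 for Clock (0.266) and 0.22 for Rora (0.573).

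**Figure D2:**
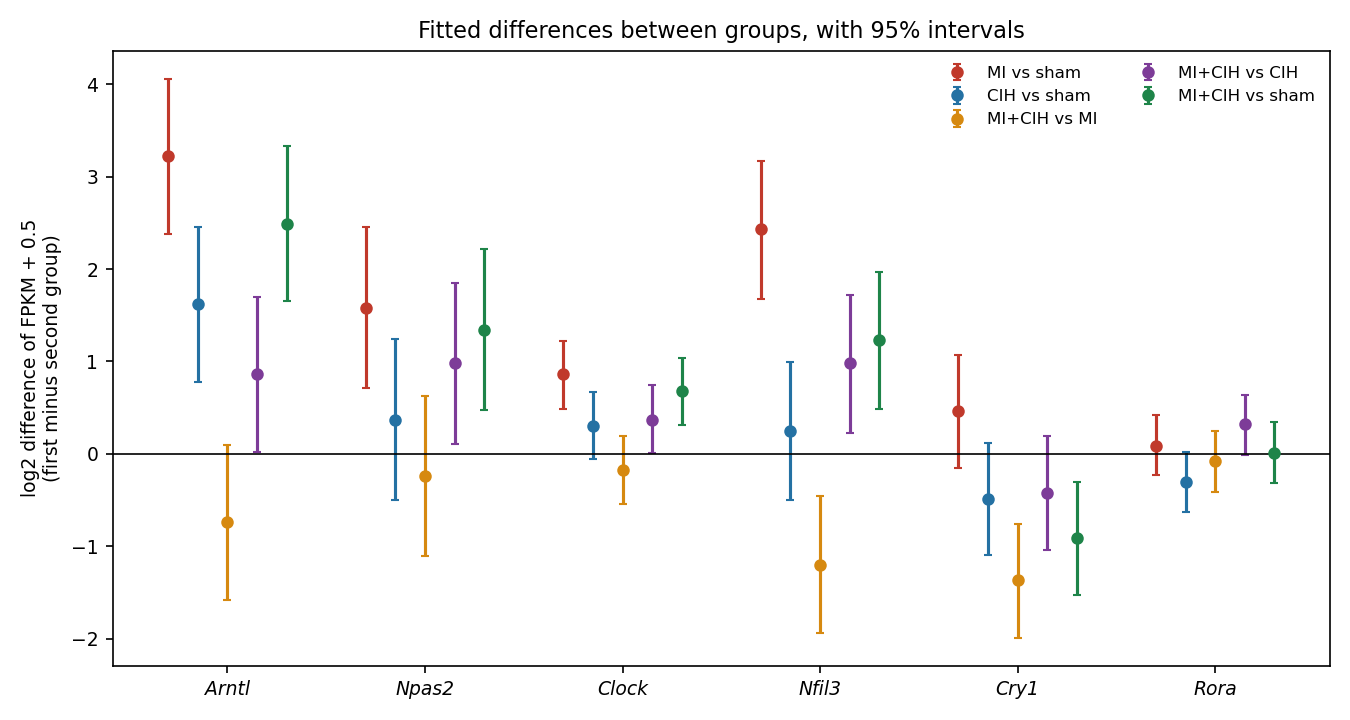
Fitted difference in log2(FPKM + 0.5) (vertical axis, first group minus second) of the 6 genes in 5 comparisons, with 95% intervals from limma over 12 libraries; MI vs sham and MI+CIH vs sham are shown as descriptions. Arntl ranges from -0.74 in MI+CIH vs MI to 3.22 in MI vs sham, Cry1 lies at -1.37 in MI+CIH vs MI, and the Rora points stay between -0.31 and 0.32.

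Arntl, Npas2, Clock and Nfil3 varied more among the CIH libraries than within any other group. The SD of log2(FPKM + 0.5) over the 3 CIH libraries was 1.03 for Arntl, above that of 96.5% of genes, and 1.04 for Npas2, above 96.6%. It was 0.73 for Nfil3 (92.4%), 0.38 for Clock (72.2%), 0.37 for Cry1 (71.6%) and 0.25 for Rora (50.5%), with a median of 0.25 over all genes. Over the 3 MI+CIH libraries the SD of Arntl was 0.05, above that of only 2.9% of genes, and over the MI libraries those of Nfil3 (0.03), Rora (0.03) and Clock (0.04) were as small. Cry1 varied more in sham (0.48) and MI+CIH (0.44) than in CIH, and Nfil3 stood at 0.57 in MI+CIH. Over all genes the median SD was 0.27 in MI+CIH.
For Arntl, Npas2 and Clock the highest CIH library was CIH 2 and the lowest CIH 3, whereas for Nfil3 and Cry1 the lowest was CIH 1, which was the highest for Rora. Arntl was 5.48 times and Npas2 10.4 times as high in CIH 2 as in CIH 3 (367 against 35 reads for Npas2), Nfil3 was 2.07 times, Clock 1.69 times, Cry1 1.47 times and Rora 1.08 times as high. Genes that the BMAL1 pair drives were chosen here after their values were seen. Dbp was 9.44 times, Per2 8.93 times, Per3 5.45 times and Nr1d2 2.42 times as high in CIH 3 as in CIH 2. Nr1d1 (1.75 times), Per1 (1.55 times) and Cry2 (1.46 times) were higher in CIH 3 by less, while Cry1 was higher in CIH 2. Ciart, which encodes a repressor of the pair, was 14.2 times as high in CIH 3 (183 against 13 reads). The hour of collection of each library was not in the labels, and its part in these differences was not tested.

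**Figure D3:**
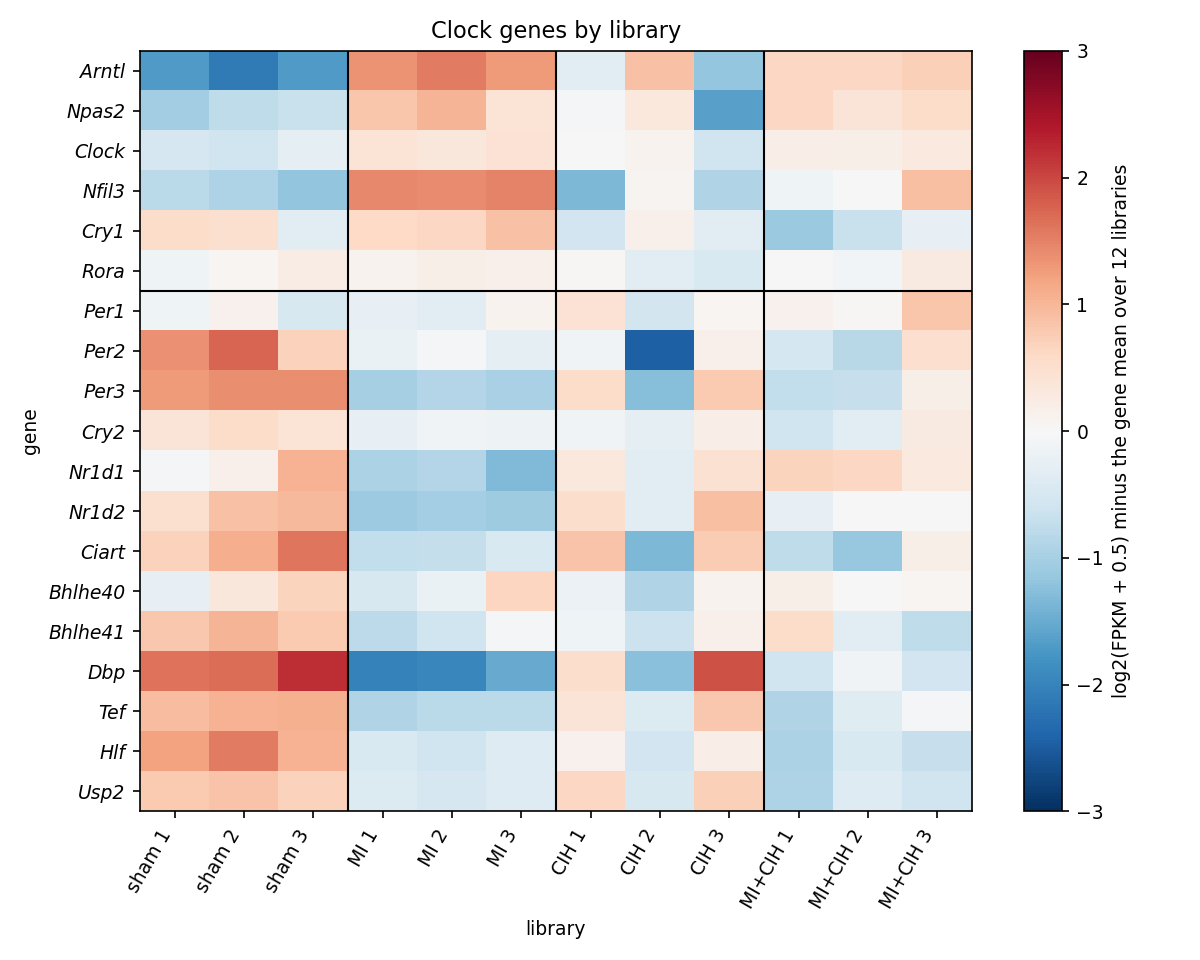
Level of the 6 members (above the line) and 13 other clock genes picked after their values were seen (below) in the 12 libraries; colour is log2(FPKM + 0.5) minus the gene's mean over the 12 libraries. Arntl is below its mean in sham, CIH 1 and CIH 3 and above it in MI, CIH 2 and MI+CIH, and Dbp shows the reverse; Cry1 is below its mean in all MI+CIH libraries and Rora varies little.

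The rest of the loop was counted over 3 lists, which were also drawn up with results of MI against sham known. Their values in MI against sham are therefore given, like those of the members, as a description without a test. Of the 12 feedback genes (repressors, the other ROR genes and Arntl2) 11 were tested, and their median log2 difference in MI against sham was -1.35, against 0.06 over all genes. Per3 stood at 1.72 against 10.4 FPKM (-2.30), Nr1d1, which encodes REV-ERB alpha, at 10.7 against 31.3 FPKM (-1.44), and Nr1d2, which encodes REV-ERB beta, at 7.7 against 29.1 FPKM (-1.84). These 3 were past the threshold on the lower side, where 0.593% of all genes were, and nothing is read from that count.
MI+CIH against MI uses the MI libraries of MI against sham, so the choice of lists favours higher values in MI+CIH for genes low in MI. The p-values of list genes there are therefore no independent evidence. In MI+CIH against MI 1 feedback gene rose, where 0.239% of all genes did, and 0 fell, where 0.0903% did. It was Nr1d1, at 33.0 against 10.7 FPKM (1.59, limma adjusted p = 0.0495). That call did not hold well: the difference was 1.45 to 1.7 over 20 other settings and the adjusted p 0.0267 to 0.191, and it was past the threshold in 4 of the 20 (a pseudocount of 1, and without sham 3, CIH 1 or MI+CIH 2). It was lost at a pseudocount of 0.1 (limma adjusted p = 0.0665), with only the groups compared (0.0668), with the replicate block (0.0721) and with each MI library left out (0.101 to 0.191). In CIH against sham and in MI+CIH against CIH 0 feedback genes passed, where 0.00645% and 28.2% of all genes did. The smallest p in the latter belonged to Arntl2, a relative of Arntl (0.55, limma adjusted p = 0.110), and Nr1d2 (-0.46, 0.200). At an unadjusted p under 0.05 there were 4 of 11 in CIH against sham, where 11.8% of all genes were, and 1 of 11 in MI+CIH against CIH, where 40.8% were. CIH against sham shares the sham libraries, so the choice of lists favours lower values in CIH for genes high in sham. The count of 4 is therefore no independent evidence.

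Of the 14 output genes, the median in MI against sham was -0.27. The D-box factor genes Dbp (5.08 against 71.2 FPKM, -3.68), Tef (9.05 against 34 FPKM, -1.85) and Hlf (3.26 against 12.3 FPKM, -1.76) and Usp2, which encodes a ubiquitin protease (12.9 against 30.5 FPKM, -1.21), were past the threshold on the lower side. Fkbp5, which encodes a chaperone partner of steroid receptors (18.2 against 5.68 FPKM, 1.65), was past it on the higher side, and nothing is read from these counts.
In MI+CIH against CIH 3 output genes rose and 2 fell, against 19.9% and 8.26% of all genes. Fkbp5 (2.56, limma adjusted p = 0.00155), Por, which encodes the electron donor of cytochrome P450 enzymes (0.98, 0.00863), and Rbm3, which encodes a cold-induced RNA-binding protein (0.87, 0.0318), rose, while Usp2 (-0.91, 0.0257) and Hlf (-0.63, 0.0468) fell. Fkbp5 and Por passed in all 20 other settings, Usp2 in 14, Rbm3 in 12 and Hlf in 6, with their highest adjusted p at 0.017, 0.0472, 0.107, 0.104 and 0.16. Leaving out any CIH library or MI+CIH 3 ended the call of Rbm3 (0.49 without MI+CIH 3), and leaving out CIH 1, CIH 3, MI+CIH 1 or MI+CIH 3 ended those of Usp2 and Hlf; that of Hlf also ended without sham 1, sham 3 or any MI library. Hlf lies beyond the 4 smallest p and was added after its value was seen.
Of the 11 genes for clock protein turnover 10 were tested, and 0 passed in CIH against sham, MI+CIH against MI or MI+CIH against CIH, where limma called 0.00645%, 0.329% and 28.2% of all genes. At an unadjusted p under 0.05 there were 0, 1 and 1 of 10, against 11.8%, 18.9% and 40.8% of all genes. The smallest p in MI+CIH against CIH belonged to the kinase genes Csnk1d (0.32, limma adjusted p = 0.0597) and Csnk2a1 (-0.28, 0.205).

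Dbp set beside the members gives the position of each library between the 2 arms. Dbp stood at 60.5, 62.5 and 90.7 FPKM in sham, 4.32, 4.55 and 6.37 in MI, 27.5, 7.77 and 73.3 in CIH and 12.5, 17.8 and 12.7 in MI+CIH 1, 2 and 3. The ratio of the Arntl to the Dbp level ran from 0.00557 to 0.0106 in sham and from 1.31 to 2.26 in MI. In CIH 1, 2 and 3 it was 0.0879, 0.805 and 0.0156, and in MI+CIH 0.291 to 0.434. The ratio of Nfil3, the D-box repressor, to Dbp lay at 0.0377 to 0.0755 for sham, at 3.83 to 5.49 for MI, at 0.0583 to 1.14 for CIH and at 0.465 to 1.27 for MI+CIH. MI was the one group in which the repressor RNA exceeded that of the activator in every library.

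Over the 12 libraries, with the members left out of the ranking, the genes most like Arntl among 15465 others were Cdkn1a (Pearson r = 0.983), Rcan1 (0.961), Gem (0.949), Tlr4 (0.926) and Fam124b (0.921). After the group means were taken out, r was 0.873, 0.816, 0.613, 0.31 and 0.711, so that of Tlr4 rested mostly on the groups. The genes most opposed were Dbp (-0.965), Tef (-0.96), Cdk18 (-0.951), Per3 (-0.946) and Mid1ip1 (-0.933), and within groups these were -0.915, -0.767, -0.719, -0.814 and -0.526. The points share library, depth and 4 groups, and the CIH libraries give much of the range within groups, so these values describe the 12 libraries and carry no test.
Cdkn1a, which encodes the cell cycle inhibitor p21, stood at 6.52, 6.06 and 6.91 FPKM in sham, 67.8, 71.2 and 62.9 in MI, 18.5, 32.5 and 14.1 in CIH and 35.1, 37.5 and 56 in MI+CIH. It was followed because an earlier report of this series set it beside Arntl. Its r also comes from these same libraries, so its p-values are a description. In MI+CIH against CIH it rose by 1.02 (limma adjusted p = 0.0146), where 19.9% of all genes rose. The call held in 16 of 20 other settings. It was lost without CIH 3 (0.76, limma adjusted p = 0.0546), without MI+CIH 3 (0.81, 0.0583), without sham 2 and MI+CIH 3 (0.81, 0.0796) and with only the groups compared (1.02, 0.0781).

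**Figure D4:**
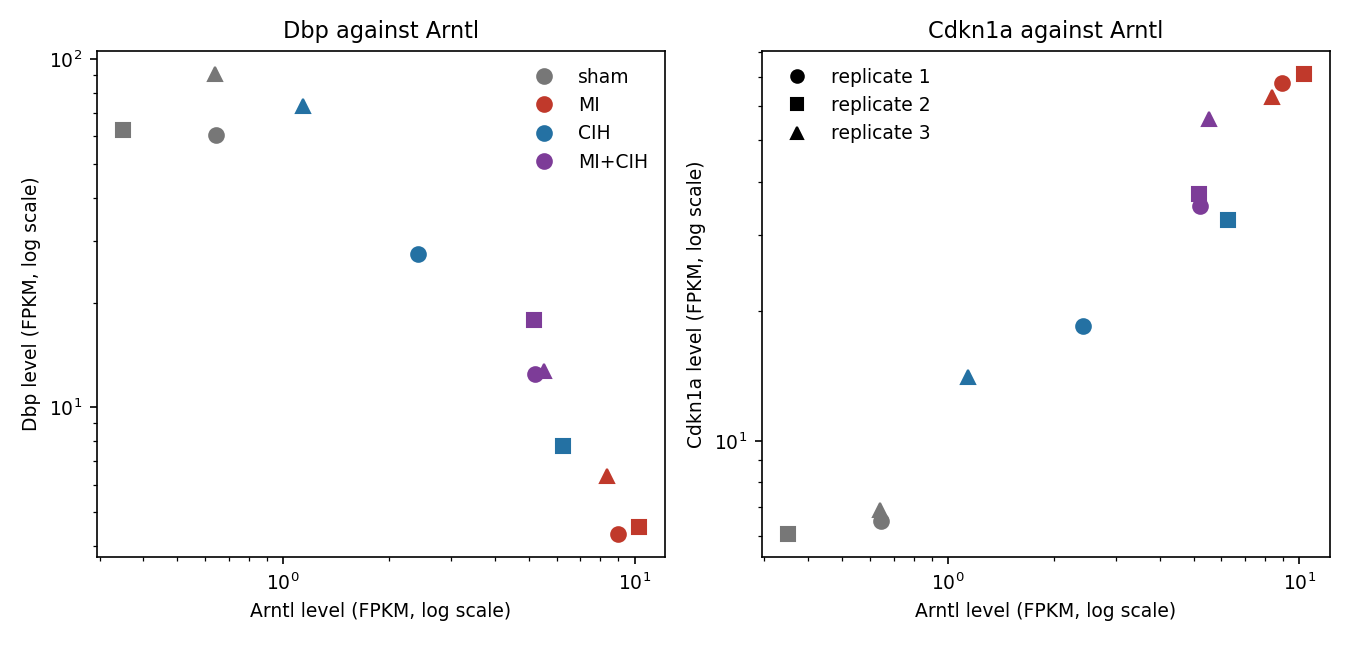
Level of Dbp (left) and Cdkn1a (right) against that of Arntl in the 12 libraries, in FPKM on log axes; colour marks the group and the symbol the replicate. Sham and MI stand at the 2 ends in both panels, MI+CIH lies between, and CIH 3, CIH 1 and CIH 2 spread in Arntl from 1.14 to 6.26 FPKM, with Dbp falling and Cdkn1a rising along the same order.

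Among the members, r with Arntl over the 12 libraries was 0.95 for Clock, 0.90 for Npas2, 0.86 for Nfil3, 0.21 for Rora and 0.10 for Cry1. Within groups it was 0.81, 0.84, 0.57, 0.09 and 0.27. Nfil3 and Cry1 had r = 0.48 over the libraries and 0.82 within groups. With Clock and Npas2, Nfil3 had r = 0.82 and 0.77 over the libraries and 0.24 with each within groups. Rora had r = 0.45 with Clock and 0.5 with Npas2 over the libraries, and 0.56 and 0.45 within groups.
The nearest other genes were Tmem260 (r = 0.955), Ing3 (0.941) and Ppm1e (0.921) for Npas2, and Tmem260 (0.944), Ing3 (0.936) and Cdkn1a (0.934) for Clock. They were Abra (0.957), Abca9 (0.949) and Htra3 (0.919) for Nfil3, Slc33a1 (0.853), St3gal5 (0.85) and Pms1 (0.843) for Cry1, and Tubgcp4 (0.958), Cep295 (0.948) and 4933407K13Rik (0.947) for Rora. Npas2 and Clock thus shared their leading neighbours, and Cry1 had the weakest.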

How the data were processed

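RNA of mouse heart was sequenced in 12 libraries; the labels name a small RNA library kit although the design text speaks of mRNA, and do not say whether each library is its own animal, so p-values measure the spread between libraries, which may be technical. Values deposited by the authors are FPKM, a unit read from the values since the header names none; with GENCODE M21 exon lengths on GRCm38, 22775 of 25404 genes (89.7%) gave whole read numbers (to within 0.1 read) in every library. Per the submitters' processing notes, HISAT, featureCounts 1.5.0-p3, DESeq 1.8.3 and mm10 were used, in roles not given in the sources used here.

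A count model was planned if counts were found; for FPKM the planned fallback was used. The 15503 genes that reached 0.5 FPKM in 3 or more libraries were modelled as log2(FPKM + 0.5) by limma-trend with robust variances (limma 3.58.1, statmod 1.5.0, R 4.3.3), 1 mean per group over all 12 libraries, no covariate, Benjamini-Hochberg adjustment within a comparison, two-sided, threshold 0.05. The fit was tested on simulated data. Members, lists, naming rule and tests were chosen with earlier results of these data known. Besides the members, the text names up to 4 passing genes per list with the smallest p in MI+CIH against CIH (2 where none passed), all that passed in MI against sham and MI+CIH against MI (named after values were seen), and the genes of highest r (5 highest and 5 lowest for Arntl, 3 for each other member). Other settings were pseudocounts of 0.1 and 1, no filter or a filter on the mean (1 FPKM), a replicate block, a fit to the compared groups alone, median-of-ratios scaling, and leaving out libraries. In the shallowest library 1 read on 1 kb is 0.03837 FPKM, which speaks of counting error only.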

Additional observations from a re-analysis of the deposited data

How the results depend on the processing

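Of 714 refitted member differences, 701 kept direction and side of the threshold or, for those without a test, moved by less than 1 SD. Another 9 came past the threshold, and 2 moved (Arntl at a pseudocount of 0.1, to 3.88 in MI against sham and 3.11 in MI+CIH against sham). Among those with a test 2 reversed, both in CIH against sham without CIH 2 (leaving out 1 library, Npas2 ran from -0.02 to 0.96 and Nfil3 from -0.15 to 0.56). Sign changes of less than 1 SD in those without a test are within the 701. Rora in MI+CIH against sham, for example, ran from -0.09 to 0.09 leaving out 1 library. Members past the threshold became 1 with median-of-ratios scaling in MI+CIH against MI (Cry1) and 1 at a mean of at least 1 FPKM in MI+CIH against CIH (Nfil3). Leaving out 1 library gave 0 to 0 members in CIH against sham, 0 to 1 in MI+CIH against MI, 0 to 3 in MI+CIH against CIH and 0 to 1 in the interaction.

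Counts over all genes moved more. In MI against sham (304) they were 143 with no filter, 1145 with only the groups compared, 177 with the replicate block, 74 without sham 2 and MI+CIH 3, and 22 to 485 leaving out 1 library. In CIH against sham (1) they were 0 with only the groups compared, with the replicate block, with median-of-ratios scaling and without those 2 libraries, and 0 to 124 leaving out 1. In MI+CIH against MI (51) they were 82 with no filter, 12 at a mean of 1 FPKM, 0 at a pseudocount of 0.1, 0 with only the groups compared, 14 with the replicate block, 77 with median-of-ratios scaling, 0 without the 2 libraries, and 0 to 993 leaving out 1. In MI+CIH against CIH (4368) they were 1690 with only the groups compared, 2181 without the 2 libraries and 2755 to 4506 leaving out 1; in MI+CIH against sham (2603) 1335, 513 and 979 to 2972. In the interaction (12) they were 1 with no filter, 2 at a pseudocount of 0.1, 0 with the replicate block, 155 with median-of-ratios scaling, 0 without the 2 libraries, and 0 to 976 leaving out 1. The cause was not tested. With median-of-ratios scaling the share of called genes that rose went from 69.7% to 59% in MI against sham, 72.5% to 50.6% in MI+CIH against MI, 67.2% to 46.9% in MI+CIH against sham and 91.7% to 39.4% in the interaction.

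No pairing by replicate number was seen: deviations of same-numbered libraries correlated at -0.175 to 0.128 (18 pairs) and of others at -0.16 to 0.183 (36 pairs). With 3 libraries per group this check cannot exclude a weaker pairing or a batch tied to the number. The replicate block changed no member's call. With 3 libraries per group, no stated hour of collection and mixed tissue, a member that missed the threshold is not shown to be equal between groups.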
